A study of Caenorhabditis elegans with 2 samples.

Results

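Single-gene promoter peaks of FKH-10 on the autosomes are the sites where the summit of a binding peak, its point of highest signal, fell in the promoter of exactly 1 protein-coding gene. A promoter began 1000 bp before the annotated gene start and ended 200 bp after it. Of the 2602 peaks in the authors' optimal list, 532 met this rule (20.4%, exact 95% binomial interval 18.9 to 22.05%), and they belonged to 522 genes. Among the other optimal peaks, 274 lay in the promoters of 2 or more autosomal genes, 182 in the promoter of 1 gene on X and 12 in those of 2 or more genes on X. A further 531 lay in autosomal introns, 554 between autosomal genes, 67 in autosomal exons and 450 on X outside promoters.

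The data came from chromatin immunoprecipitation and sequencing (ChIP-seq) of whole first-stage (L1) larvae of Caenorhabditis elegans of mixed sex. Both biological replicates were of strain OP337, an unc119(ed3) mutant that carries the integrated transgene wgIs377, made of fkh-10 joined to TY1, EGFP and FLAG sequences and of unc119. Every animal therefore had the tagged protein from a transgene, and the replicates were separate biosamples of the same transgenic line. The antibody is named only by its target, chromatin was sonicated, and a control experiment named in the labels was not analysed here. There was 1 group and no second condition, so no test between conditions was made, and with 2 replicates the error is shown as both values. In a whole larva, binding in few cells cannot be told apart from weak binding in many. The peak lists give no read counts and the depth is unknown, so intervals reflect only how many peaks or genes were counted.

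Forkhead proteins bind DNA through a winged-helix domain, and the core word many of them recognise is RTAAAYA, where R is A or G and Y is C or T. In the worm, transcripts of most genes are trans-spliced to a short leader, and for these genes the annotated start is commonly the splice site, with transcription beginning some way upstream. Promoters of worm genes are compact, many neighbouring genes share a divergent promoter, and some genes sit in operons, where trans-splicing to the SL2 leader separates the downstream messages.

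The sequences under the highest peaks show what the summits look like. For the 2 highest members on each of chromosomes II to V, the reference from 50 bp before to 50 bp after the summit is printed on the strand of the gene (RefSeq copy of WBcel235, the assembly that is also called ce11). Capitals mark matches, on either strand, to 9 short words searched for and to the 5 leading 8-base words described with the word counts. The windows are of cdc-48.1 (chrII:10563527-10563627, minus strand), H41C03.3 (chrII:5844746-5844846, plus strand), rpl-3 (chrIII:3867539-3867639, plus strand), rpl-35 (chrIII:7854634-7854734, plus strand), eelo-2 (chrIV:17249851-17249951, plus strand), hsp-1 (chrIV:17278502-17278602, plus strand), his-37 (chrV:9546969-9547069, plus strand) and tos-1 (chrV:9344276-9344376, minus strand).
cdc-48.1: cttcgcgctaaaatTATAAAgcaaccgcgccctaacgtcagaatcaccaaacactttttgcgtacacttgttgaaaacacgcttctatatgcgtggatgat
H41C03.3: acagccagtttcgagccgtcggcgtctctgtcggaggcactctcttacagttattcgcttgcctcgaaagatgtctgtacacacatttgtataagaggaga
rpl-3: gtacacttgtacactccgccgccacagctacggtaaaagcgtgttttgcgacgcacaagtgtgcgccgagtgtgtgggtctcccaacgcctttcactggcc
rpl-35: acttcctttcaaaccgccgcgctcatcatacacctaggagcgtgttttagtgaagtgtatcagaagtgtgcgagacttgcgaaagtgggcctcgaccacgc
eelo-2: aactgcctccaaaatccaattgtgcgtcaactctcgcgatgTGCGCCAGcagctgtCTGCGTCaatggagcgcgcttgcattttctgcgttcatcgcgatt
hsp-1: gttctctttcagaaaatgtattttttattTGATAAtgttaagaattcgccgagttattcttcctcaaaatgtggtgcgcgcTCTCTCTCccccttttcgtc
his-37: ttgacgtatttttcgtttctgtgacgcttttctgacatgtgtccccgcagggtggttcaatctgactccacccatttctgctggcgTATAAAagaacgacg
tos-1: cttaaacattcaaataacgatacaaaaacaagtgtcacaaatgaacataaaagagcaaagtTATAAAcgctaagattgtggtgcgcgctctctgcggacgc
None of these 8 windows holds the forkhead word RTAAAYA. The windows at H41C03.3, rpl-3 and rpl-35 hold none of the 14 words. The G and C content of the windows was 38.6% at hsp-1 and tos-1, the lowest values of the 8, and 58.4% at rpl-3, the highest.

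A second set shows the words that were most frequent at summits. K12H4.5 (chrIII:8043930-8044030, plus strand), W02B3.3 (chrIII:668444-668544, minus strand) and xbp-1 (chrIII:4193743-4193843, plus strand) hold the repeat GAGAGAGA or its complement TCTCTCTC, whereas W06H8.6 (chrV:6227721-6227821, minus strand) and ntl-11 (chrIV:15471577-15471677, minus strand) hold CTGCGTC, and W02B3.3 holds both words. The window of rab-3 (chrII:5727845-5727945, minus strand), a synaptic gene, is printed beside them. K12H4.5, W06H8.6, ntl-11, xbp-1 and rab-3 fall under the rule for named genes, and W02B3.3 was added after its values were seen.
K12H4.5: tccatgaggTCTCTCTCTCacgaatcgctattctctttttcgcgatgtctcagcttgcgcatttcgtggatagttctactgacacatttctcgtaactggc
W02B3.3: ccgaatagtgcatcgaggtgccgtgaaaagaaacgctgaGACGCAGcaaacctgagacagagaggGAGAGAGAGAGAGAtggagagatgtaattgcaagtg
xbp-1: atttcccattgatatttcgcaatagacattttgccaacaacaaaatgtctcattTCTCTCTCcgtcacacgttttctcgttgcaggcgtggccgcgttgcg
W06H8.6: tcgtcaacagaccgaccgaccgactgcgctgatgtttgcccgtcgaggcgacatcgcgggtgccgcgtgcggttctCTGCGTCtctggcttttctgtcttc
ntl-11: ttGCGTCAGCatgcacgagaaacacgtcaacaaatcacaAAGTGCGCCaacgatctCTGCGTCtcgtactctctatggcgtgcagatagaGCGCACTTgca
rab-3: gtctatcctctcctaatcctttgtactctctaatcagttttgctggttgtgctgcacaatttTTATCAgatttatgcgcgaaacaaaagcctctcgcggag
The repeat was read as TC on the gene strand at K12H4.5, xbp-1 and hsp-1 and as GA at W02B3.3. The ntl-11 window holds 4 of the 14 words.

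The strongest member was the peak of cdc-48.1, which encodes the AAA ATPase that extracts ubiquitin-marked proteins from complexes and membranes. Its signal, the authors' value per peak on a scale that is not given, was 429 in the optimal list, with 219 in replicate 1 and 209 in replicate 2, and its summit lay 170 bp upstream of the gene start. The peak of rpl-3, which encodes the large-subunit ribosomal protein uL3, followed with a signal of 409 in the optimal list and 221 and 188 in replicates 1 and 2. The optimal list was called on the pooled replicates, and its values exceeded those of either replicate at both genes. The replicates were close to each other at both peaks, which ranked within the first 6 of each replicate's list.

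Next came egg-5, an inactive tyrosine phosphatase needed at egg activation, with a signal of 315 in the optimal list (172 in replicate 1 and 143 in replicate 2), and H41C03.3 with 303 (182 and 134). Their summits lay 584 and 981 bp upstream of the gene starts. An SL2 spliced leader RNA gene was much nearer: sls-2.4 was 33 bp from the egg-5 summit and sls-2.1 was 69 bp from that of H41C03.3. For these peaks the rule therefore names a gene that is not the nearest annotated gene. W06H8.6 (signal 171) is a gene whose RefSeq product has a basic helix-loop-helix domain. Its summit lay 761 bp upstream, inside an annotated non-coding gene or pseudogene and 221 bp from a small nucleolar RNA gene.

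Places 5 to 10 included ribosomal, histone and chaperone genes. The peak of rpl-35, for the ribosomal protein uL29, had a signal of 266 (129 in replicate 1 and 136 in replicate 2), and that of his-37, a histone H4 gene, 247 (125 and 124). At hsp-1, the constitutive Hsp70 chaperone, the signal was 236, with 158 in replicate 1 and 77.9 in replicate 2. That gap is wide for a peak so strong: at each of the others of the 10 strongest peaks, replicate 1 was at most 1.36 times replicate 2, against 2.03 times at hsp-1. The remaining peaks of the first 10 were at eelo-2, whose product has an M3-type peptidase domain (signal 255), K12H4.5 (220.4) and tos-1, a target of splicing regulation (213).

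Places 11 to 20 ranged in signal from 161 to 210.4. They included both subunits 5 of cytochrome c oxidase, the last complex of the respiratory chain: cox-5B had 200.2 (106 in replicate 1 and 96.8 in replicate 2) and cox-5A had 188 (88.1 and 100.4). Y39E4B.6, a homolog of Smad nuclear-interacting protein 1, had 210.4, ints-4 of the Integrator complex 186, C47E8.4, a FAM50 homolog, 174, and ntl-11 of the CCR4-NOT deadenylase complex 164. F02E9.5, named in RefSeq as an oxidative stress-responsive protein, had 176. The neuronal genes unc-108, the Rab2 GTPase of dense-core vesicle maturation (183), and rgef-1, a Ras guanyl-releasing protein (161), completed the group. All 20 ranked within the first 117 peaks of replicate 1 and the first 184 of replicate 2. The ints-4 summit was the only one of the 20 downstream of its gene start, by 54 bp.

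At the other end, the 5 weakest members had signals between 37.03 and 37.3, at gldi-2, the beta-tubulin gene tbb-2, the phosphatase gene C24H11.2, F57B9.1 and ipgm-1, which encodes a phosphoglycerate mutase of glycolysis. The lowest signal in the whole optimal list was 37.02, so these peaks sit at its threshold. Over all members the median signal was 58.4, the quartiles 44.7 and 84.1, and 87 members (16.4%) exceeded 100. The other 2070 optimal peaks had a median of 61.3, and 366 of them (17.7%) exceeded 100. Promoter peaks shared by 2 or more autosomal genes had a median of 62.9 and those of 1 gene on X 64.2, so members spanned about the same range as the rest of the list. No test of these differences was made. The listed interval was 376 bp wide at 490 members and narrower at 42, down to 94 bp, and 17 of the 20 strongest were among the narrower ones (median signal 143, against 55.8 at the common width).

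The optimal list was itself thresholded on agreement between these 2 replicates, so overlap with their leading peaks is partly set by that selection and is given as a description. Taking the 2602 highest-signal peaks of each replicate, 372 members (69.9%, interval 65.8 to 73.8%) overlapped one in both, 62 in replicate 1 alone, 85 in replicate 2 alone and 13 in neither. For the other optimal peaks the share in both was 72.5% (70.5 to 74.4%). By signal, which the same selection used, the share was 100% for the 133 members of highest signal (84.2 and above), 97.7% for the next 133, 63.9% for the next and 18.05% for the 133 lowest (37.03 to 44.6). When summits were paired within 100 bp, 507 members had a partner in both replicates, with a median signal of 31.9 in replicate 1 and 28.9 in replicate 2. Spearman's rho between replicate signals over these 507 peaks was 0.597, beside 0.605 over the 1957 other optimal peaks so paired. Peaks of the same libraries are not independent samples, so both values are descriptions.

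**Figure D1:**
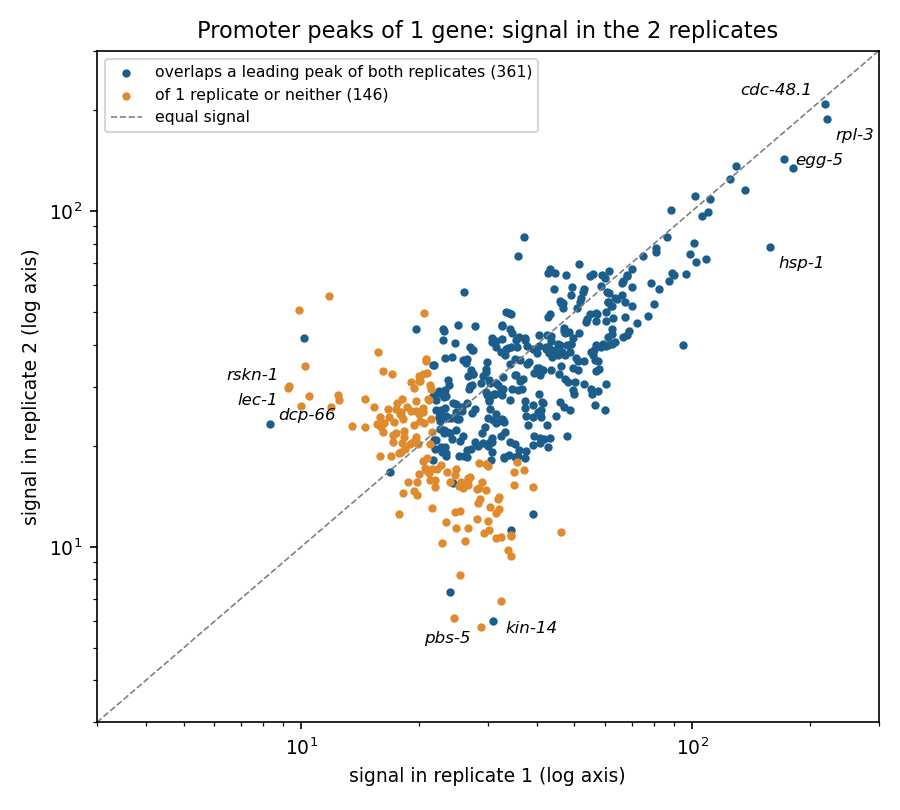
Signal of each single-gene promoter peak in replicate 1 (x axis) and replicate 2 (y axis), both log axes, for the 507 peaks paired within 100 bp. Colour marks the 361 that overlapped a leading peak of both replicates and the 146 that did not. The 2 strongest peaks, cdc-48.1 and rpl-3, lie near the dashed line of equal signal. Some other strong peaks do not, such as hsp-1 (158 in replicate 1 and 77.9 in replicate 2). The labelled peaks at the lower and left edges are those whose ranks differed most by the absolute difference.

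The 5 members whose replicate ranks differed most, by the absolute difference, were all weaker than the median. That measure favours weak peaks, since the replicate lists run to 28842 and 28896 peaks and strong peaks stand near their head. At lec-1, a galectin gene, the paired peak ranked 19422 in replicate 1 (signal 9.25) and 1256 in replicate 2 (29.7). At rskn-1, a ribosomal S6 kinase homolog, the ranks were 19150 (9.32) and 1232 (30.2), so both genes were strong in replicate 2 only. The other three were sensitive to the pairing. At dcp-66, a transcription factor gene, the nearest summit had a signal of 8.34 in replicate 1 and 23.2 in replicate 2, but a stronger overlapping peak of replicate 1 reached 21.8. At kin-14, a tyrosine kinase gene, replicate 2 likewise had 6.02 at the nearest summit and 34.7 at an overlapping peak, beside 30.9 in replicate 1. At pbs-5, a proteasome subunit gene, replicate 1 had 28.9 at the nearest summit and 35.3 at the strongest overlapping peak, and replicate 2 had 5.78 and 15.8. Using the strongest overlapping peak for every member gave a rho of 0.600 over 529 peaks.

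Of the 522 genes, 10 had 2 member peaks. At egg-5 a second peak of signal 56.2 lay 789 bp upstream, and at H41C03.3 one of 59.5 lay 780 bp upstream, both within 63 bp of the same SL2 RNA gene as the stronger peak. For eat-16, a regulator of G-protein signalling, the signals were 113 and 38.5, for the histone methyltransferase gene lin-59 they were 90.1 and 37.9, and for rps-24, of the small ribosomal subunit, 91.4 and 79.2. The rps-24 pair was present at similar strength in each replicate, with 49.7 and 40.5 in replicate 1 and 41.8 and 42.7 in replicate 2. At mog-4, a splicing helicase gene that was named after its values were seen, the summit 199 bp upstream had a partner within 100 bp in replicate 1 only (50.3) and the summit 399 bp upstream in replicate 2 only (20.8). A weaker peak of the pooled list, below the optimal threshold, also lay in the promoter window of 64 member genes (12.3%), against 3702 (22.1%) of the other autosomal genes. The 2 sets differ by the rule. Each member gene already had an optimal peak in its window, and the other genes include those with shared promoters. The difference was not tested.

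Summits of members gathered a short way upstream of the gene start. The median position was 276 bp upstream (quartiles 485 and 146 bp), 503 members (94.5%) lay upstream, and 257 (48.3%) fell between 400 and 100 bp upstream. Among the 2910 weaker single-gene promoter peaks of the pooled list, the median was 341 bp upstream, 84.4% lay upstream and 29.4% fell between 400 and 100 bp. The fullest 100-bp bin, from 200 to 100 bp upstream, held 102 members (19.2%) and 11.1% of the weaker peaks. The position varied little with signal, with medians of 291 bp upstream for the 133 strongest members and 288 bp for the 133 weakest. The ends of the window cut through a thin tail: npr-13 (995 bp upstream, signal 57.8) and hrpk-1 (174 bp downstream, 78.6) were the last inside it, while har-1 (1002 bp upstream, 44.6) and rig-5 (203 bp downstream, 47.4) fell just outside.

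**Figure D2:**
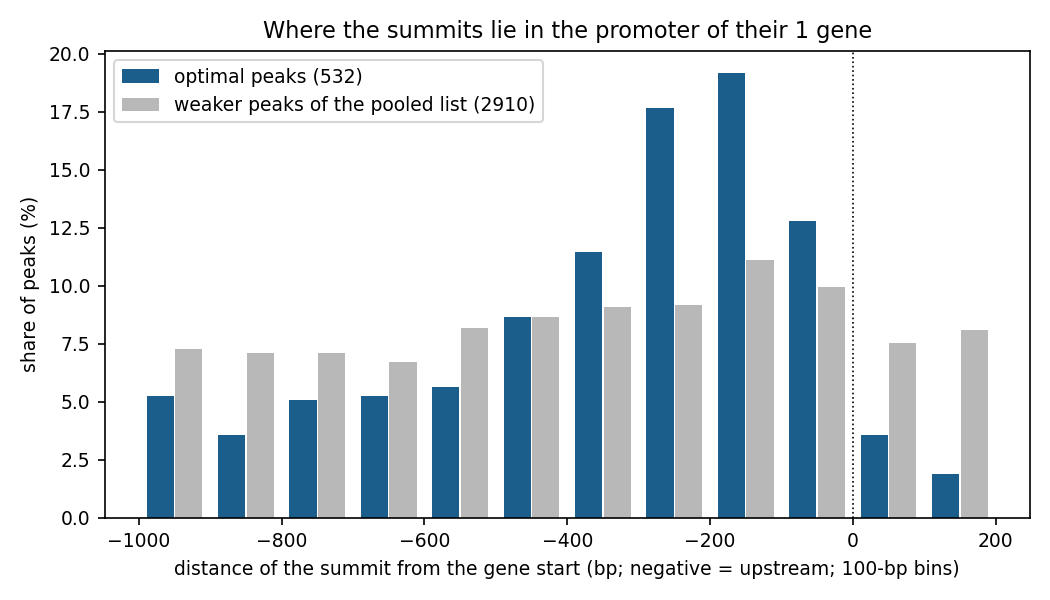
Share of peaks (y axis, percent) by the distance of the summit from the start of its 1 gene (x axis, 100-bp bins, negative upstream), for the 532 single-gene promoter peaks of the optimal list and the 2910 weaker ones of the pooled list. The optimal peaks gather between 400 and 100 bp upstream and are few downstream of the start, whereas the weaker peaks spread across the window.

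The annotation at the summit was intergenic for 403 members (75.8%). Another 45 summits (8.46%) fell in a non-coding gene or pseudogene, 38 (7.14%) in an intron of another protein-coding gene, as at C47E8.4, 15 in a UTR or other exon of another gene and 3 in its coding exons. Within their own gene, 15 members lay in a UTR or other non-coding exon, 7 in an intron and 6 in a coding exon. The upstream neighbour pointed the same way for 274 member genes (52.5%, against 50.6% of all autosomal genes) and the opposite way for 212 (40.6%, against 42.3%). For those 212 genes the median gap to the neighbour was 3330.5 bp, against 1188 bp for all divergent autosomal genes. The rule itself sets this gap, since a near divergent neighbour would make the promoter a shared one.

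By chromosome, 123 members lay on I, 99 on II, 106 on III, 96 on IV and the remainder on V. Chromosome V has the most genes, and 2.16% of its protein-coding genes had a member, the lowest share. The share was 4.13% on I, 4.02% on III, 2.86% on IV and 2.75% on II. Median signals per chromosome stayed between 54.7 and 60.7.

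Summit windows differed from their own flanks in base composition and in the words they held. The median G and C content was 46.5% in the windows of 50 bp to each side of a member summit, against 33.7% in windows centred 300 bp upstream, 35.6% in windows 300 bp downstream and 33.7% at the matching position of all 17242 autosomal promoters (276 bp upstream). Weaker single-gene promoter peaks had 36.6%, close to the background. The mean content along the gene strand reached 46.7% in the 50 bp after the summit and 45.5% in the 50 bp before it, and was between 34.0 and 40.2% in every other 50-bp bin out to 500 bp.

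CTGCGTC was the most frequent at summits of the 9 words searched, and it was scarce beside them. It occurred on either strand in 56 of the 532 summit windows (10.5%, interval 8.05 to 13.5%), against 6 upstream flanks (1.13%), 2 downstream flanks (0.376%) and 1.25% of all autosomal promoters. The strongest members with it were eelo-2, W06H8.6, ntl-11, Y39B6A.43 and W02B3.3, with signals of 255, 171, 164, 155 and 140.2. Members with the word had a median signal of 63.96 and those without it 57.95, and its share was 14.3% among the 133 strongest members and 8.27% among the 133 weakest. Promoter peaks of 2 or more genes held it at 7.66% (4.81 to 11.5%), and single-gene promoter peaks on X at 9.89% (5.97 to 15.2%). Outside promoters it was in 9.93% (7.57 to 12.7%) of autosomal intergenic summits and 7.16% (5.11 to 9.69%) of intron summits. The word was therefore not particular to promoters. Each of these intervals overlaps that of the members, which does not show that the shares are equal, and the differences were not tested. Weaker single-gene peaks held it at 3.06% (2.46 to 3.75%).

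The repeat GAGAGAGA was in 39 summit windows (7.33%, 5.26 to 9.89%), against 6 windows (1.13%) in each flank and 0.847% of all autosomal promoters. Here the stronger members were not ahead: members with the repeat had a median signal of 51.6, against 59.0 for those without, and lay a median of 369 bp upstream, against 267 bp. Read on the strand of the gene, it was GA in 17 windows and TC in 22. The highest members with it were hsp-1, K12H4.5, W02B3.3, xbp-1 and the calcium-binding protein gene pbo-1 (signal 111). The repeat was not particular to these promoters: it was in 8.47% (6.25 to 11.2%) of autosomal intron summits and 9.21% (6.93 to 11.9%) of intergenic summits outside promoters. It was in 2.92% (1.27 to 5.67%) of the summits shared by several autosomal promoters and 3.85% (1.56 to 7.76%) of single-gene promoter summits on X. The interval of the shared promoters meets that of the members only between 5.26 and 5.67%, and the other intervals overlap it more widely. Overlap does not show that the shares are equal, and the lower shares at shared and X promoters were not tested. The 2 words met in the same window at 4 members.

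The forkhead word was scarce at summits. RTAAAYA was found in 26 summit windows (4.89%, 3.22 to 7.08%), against 14.3% of upstream flanks, 12.2% of downstream flanks and 12.3% of all autosomal promoters. Its stricter form TGTTTAC, which overlaps it, was in 1.32% of summit windows, 2.82% of upstream and 0.940% of downstream flanks. RTAAAYA was in 4.74% of shared autosomal promoter summits, 5.27% of intron and 5.05% of intergenic summits outside promoters, so its low share held across the optimal list. The strongest member with RTAAAYA was that of ints-4, followed by those of the splicing-related gene rbm-39 (signal 97.98), fic-1 (86.3), gei-4 (80.8) and daf-16 (70.4). Words made mainly of A and T were likewise less frequent at summits: TATAAA was in 4.14% of summit windows, against 13.5 and 13.9% of the upstream and downstream flanks, TGATAA in 3.76%, against 12.03 and 8.83%, and TAATTA in 1.504%, against 4.89 and 6.20%. GGGCGG, a GC box, was in 6.77%, against 2.07 and 1.69%. The E-box CACGTG was in 2.07%, against 0.940 and 0.376%.

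**Figure D3:**
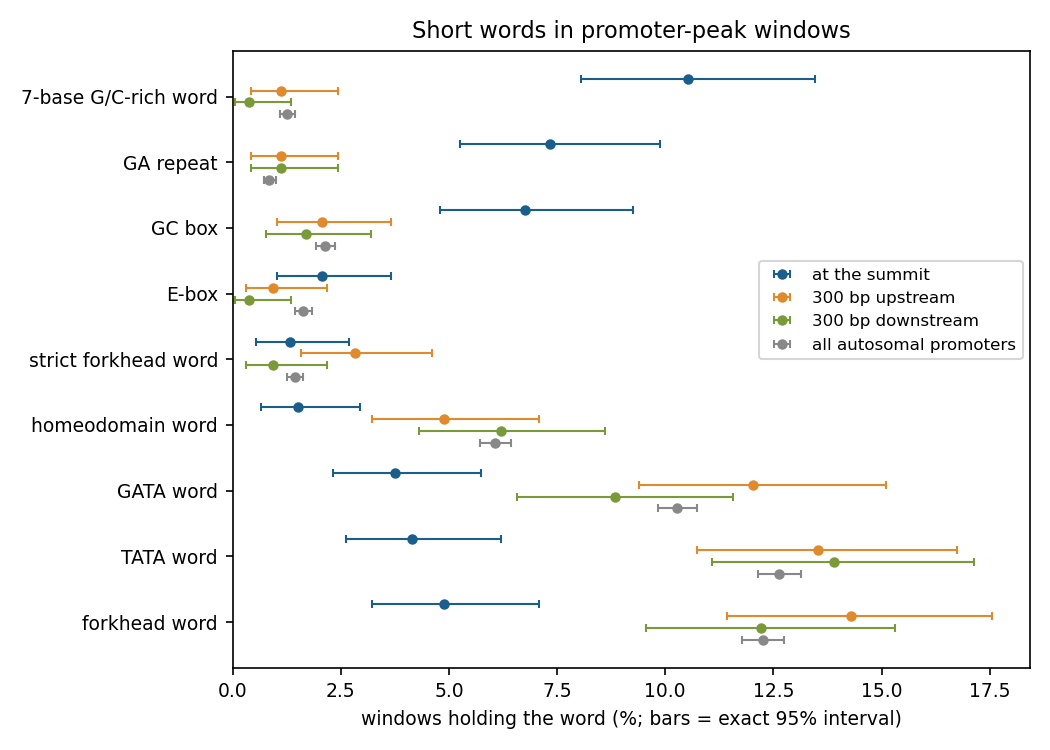
Share of windows (x axis, percent, with exact 95% intervals) that hold each of the 9 words (rows) at the 532 member summits, 300 bp upstream, 300 bp downstream and at the matching position of all 17242 autosomal promoters. The 7-base G/C-rich word (10.5% at summits), the GA repeat (7.33%) and the GC box (6.77%) stand to the right at summits, and the forkhead, TATA, GATA and homeodomain words stand to the left.

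Base composition moved with these differences, so the words were also counted within ranges of G and C content, ranges that were chosen after the values were seen. In windows of 40 to 50% G and C, RTAAAYA was in 9 of 233 member summits (3.86%, 1.78 to 7.21%), against 5.36% of 3302 autosomal promoters. At 50% and above it was in 10 of 175 (5.71%, 2.77 to 10.3%), against 2.10% (1.20 to 3.38%) of 763, and below 40% in 7 of 124 (5.65%, 2.30 to 11.3%), against 14.6%. The forkhead word was thus scarcer at member summits below 40%, and in the middle range the promoter share lay within the interval of the members. The ranges are wide, and composition was not matched within them. Below 40% stood 13177 of the 17242 promoters but only 124 of the 532 member windows, so the shares there are not of like composition. In the highest range its share was higher at member summits, but on 10 windows and with overlapping intervals. No test of these differences was made. GGGCGG also came close to the promoters of the same range, at 5.15%, against 4.54%, in the middle range and 12.6%, against 14.2%, in the highest. CTGCGTC kept its difference in all 3 ranges, at 6.45, 8.58 and 16% of member summits from the lowest to the highest range, against 0.516, 3.12 and 5.90% of promoters. GAGAGAGA did so as well, at 5.65, 6.87 and 9.14%, against 0.524, 1.76 and 2.49%.

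**Figure D4:**
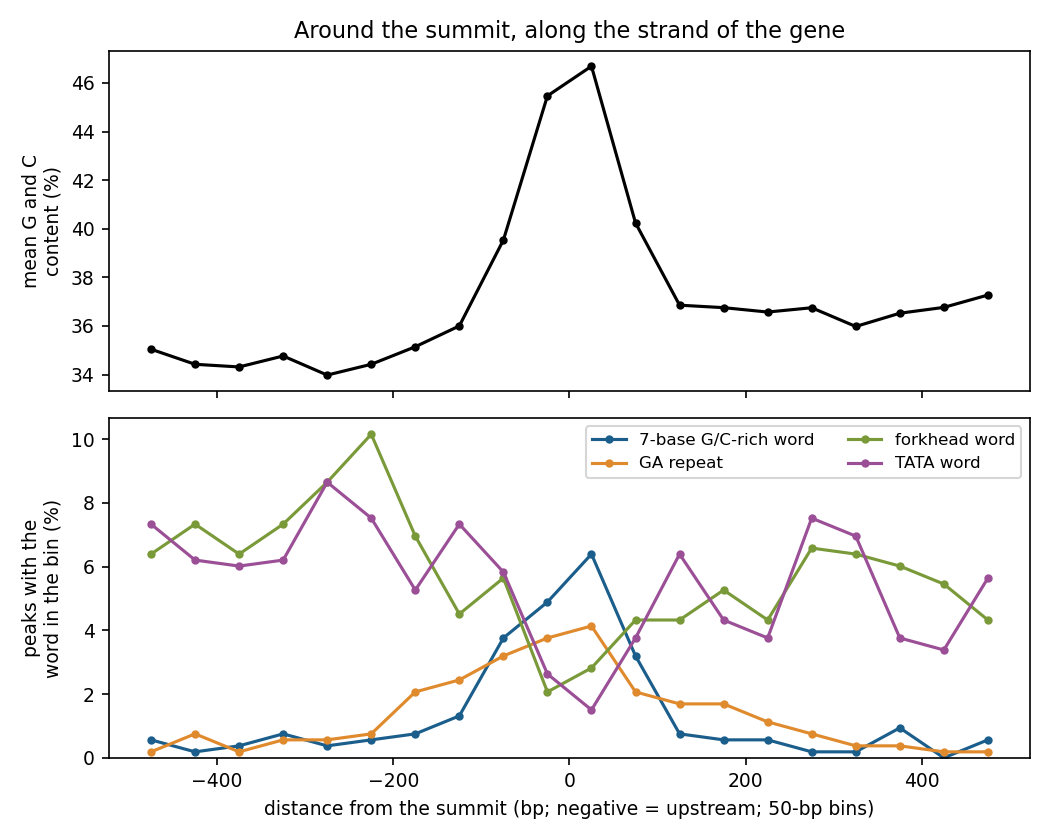
Mean G and C content (upper panel, percent) and share of the 532 peaks with a word (lower panel, percent) in 50-bp bins by distance from the summit (x axis, bp, negative upstream on the gene strand). The G/C-rich word and the GA repeat peak in the bins beside the summit, at 6.39 and 4.14% in the first bin downstream, where the forkhead and TATA words are at 2.82 and 1.504%.

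All 8-base words, each counted with its complement, were then ranked by their number of summit windows over the mean of the flanks, with 0.5 added to each count, among words in 15 or more summit windows. AAGTGCGC led, in 35 summit windows, 1 upstream flank and 0 downstream flanks. CTGGCGCA (17 summit windows), GCGTCAGC (16) and AGTGCGCC (15) were in 0 flanks of either kind, and AAACGCGC was in 32 summit windows and 1 flank on each side. Together the 5 words were in 77 summit windows (14.5%), against 2 upstream and 1 downstream flanks, and in 1.20% of all autosomal promoters. Shared promoter peaks held at least 1 of them in 20.4% and weaker single-gene peaks in 2.16%. The words were chosen on these windows, so their counts describe the members and are no test. Of the members, 240 (45.1%) held at least 1 of the 14 words, and the others held none.

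The genes behind the members were set against 42 lists of gene families and functions. Of the 17242 autosomal protein-coding genes, 3.03% (522 genes) had a single-gene promoter peak, and 1079 (6.26%) had a promoter peak of any kind. Lists were read against that 3.03%, and no set test was made. In 28 of the 42 lists the share was at or above it, 5 lists had no member gene, and 393 of the member genes (75.3%) were in no list. Genes known only by a sequence name were fewer than in the annotation: 153 member genes (29.3%) had no other name, against 44.6% of all autosomal genes.

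Genes used across the nervous system had the highest share. Of 41 pan-neuronal and synaptic genes, 13 had a member (31.7%, interval 18.1 to 48.09%). Their median signal was 87.1. The median position of their summits was 142 bp upstream, against 276 bp over all members, but it ran from 37 bp at egl-21 to 808 bp at jnk-1. The window limits this position: with a 2000 bp promoter, 22 genes of the list had a member. Beside unc-108 and rgef-1, the leading one was rab-3, the GTPase of synaptic vesicles, with a signal of 122 (64.1 in replicate 1 and 54.8 in replicate 2), 42 bp upstream. The next was egl-21, a carboxypeptidase that matures neuropeptides, with 100.05 (63.6 and 40.6). Others were unc-31, the CAPS protein of dense-core vesicle release (89.2), unc-16, a JIP3 adaptor of axonal transport (73.8), unc-76 (65.97), ric-3, a chaperone of acetylcholine receptors (58.4), and ida-1 (55.6). For genes of single transmitters or peptides the lists are short or the counts low, and the differences were not tested. Of 17 neurotransmitter identity genes 1 had a member (5.88%, 0.149 to 28.7%), the GABA-synthesising unc-25 (62.9), and of 70 FLP and NLP neuropeptide genes 1 had a member (1.43%, 0.0362 to 7.70%), flp-22 (93.7). None of 37 insulin-like genes had one, where a count of 0 allows up to 8.11%, above the 3.03%.

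Ribosomal protein genes also had many members, but most of their peaks were in promoters shared with a neighbour. Of 45 genes of the large subunit, 10 had a member (22.2%, 11.2 to 37.1%) and another 21 had only a shared promoter peak. Of 31 genes of the small subunit the numbers were 5 (16.1%, 5.45 to 33.7%) and 18. Members thus made up 32.3 and 21.7% of the large-subunit and small-subunit genes with any promoter peak, against 81.2% (13 of 16) of the pan-neuronal ones. The spacing of the genes moved with this: the median gap to the upstream neighbour was 589 and 532 bp for the ribosomal lists and 3284 bp for the pan-neuronal list, against 826 bp over all autosomal genes. Its part in the difference was not tested. After rpl-3 and rpl-35, rpl-41.2 had 117 (66.5 in replicate 1 and 42.01 in replicate 2). The 10 large-subunit genes also include rpl-42 (85.3) and rpl-24.2 (76.1), whose RefSeq products do not name a ribosomal subunit protein. They are a NAM-associated domain-containing protein and a putative ribosome biogenesis protein. In the small subunit, rps-24 had 91.4, rps-4 had 74.6 and rps-17 had 45.99.

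Among other genes of protein synthesis there were 4 of 44 translation factor genes, led by the eIF3 subunit genes eif-3.C (108.2), eif-3.J (60.7) and eif-3.B (55.98), 4 of 70 mitochondrial ribosomal genes, led by mrpl-15 (75.9), mrpl-28 (72.6) and mrpl-55 (58.3), and 1 of 32 tRNA synthetase genes, kars-1 (39.6). Splicing factors had 4 of 56, with snr-4 (77.5), rsp-6 (76.5) and isy-1 (46.3), and a further 16 had only a shared peak. Nuclear transport genes had 6 of 43 (13.95%, 5.30 to 27.9%), led by the importin ima-2 (70.7) and the nucleoporin genes npp-8 (60.6) and npp-6 (55.3). Genes of RNA polymerases and general transcription had 2 of 75, mdt-22 (72.9) and taf-12 (59.6), a share of 2.67%, beside the 3.03% of all autosomal genes.

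Among genes of protein turnover and folding, ubiquitin conjugation and removal had 11 of 84 genes (13.1%, 6.72 to 22.2%), led by cdc-48.1, the ubiquitin protease usp-4 (100.7) and otub-2 (98.1). Proteasome genes had 2 of 33, the lid protease rpn-11 (106) and pbs-5 (38.8), with 7 more in shared peaks only. Chaperones had 6 of 76, with bag-1 (157), an Hsp70 cofactor, and dnj-9 (109.6), a J-domain protein, after hsp-1. Vacuolar ATPase genes had 2 of 19, vha-13 (79.8) and unc-32 (50.2), and small GTPases of membrane traffic 3 of 31, with sar-1 (63.7) after unc-108 and rab-3. Secretory coats and translocon genes had 2 of 36, sar-1 again and sec-24.1 (40.4).

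In energy metabolism, respiratory chain and ATP synthase genes had 6 of 47 (12.8%, 4.83 to 25.7%). After cox-5B and cox-5A, cox-6A of the same complex had 67.8, 773 bp upstream and 53 bp from a small nuclear RNA gene. Glycolysis and citrate cycle genes had 5 of 34 (14.7%, 4.95 to 31.1%), with dld-1, the dihydrolipoyl dehydrogenase shared by several mitochondrial complexes (148), the pyruvate dehydrogenase kinase gene pdhk-2 (135) and the aldolase gene aldo-1 (62.7). Tubulins, actins and actin-related genes had 6 of 27 (22.2%, 8.62 to 42.3%), with tba-2 (81.1), act-2 (58.4) and the touch neuron tubulin mec-12 (50.8). Their median signal of 47.6 was low, and in the stronger 1301 peaks of the list only 1 of the 6 genes kept a member. Over all lists and genes, 242 of the 522 member genes (46.4%) were kept there. Nuclear transport genes likewise fell from 6 to 1 and translation factors from 4 to 1, whereas pan-neuronal genes kept 10 of 13. These differences were not tested. DNA replication and cell cycle genes had 8 of 78, with pcn-1 (111.7), the PCNA clamp, and mcm-10 (77.4), besides cdc-48.1, which entered that list by its name alone. Histone genes had 1 of 76, his-37.

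Regulators of development had members at few genes, and several of these lists were near the 3.03% of all autosomal genes. Wnt and planar polarity genes had 4 of 27 (14.8%, 4.19 to 33.7%). They were the ligand gene cwn-2 (109), the beta-catenin genes wrm-1 (50.5) and hmp-2 (44.6 and 40.4), and mig-14 (45.3). The product of mig-14 carries Wnt to the cell surface. Of these 5 peaks, 2 overlapped leading peaks of both replicates, and the median signal was 45.3. The hmp-2 peak of 44.6 had no partner within 100 bp in either replicate. Among the stronger peaks of the list, as used above for tubulins and actins, only 1 of the 4 genes kept a member. Of 24 bZIP factor genes 3 had a member (12.5%, 2.66 to 32.4%). They were xbp-1, the factor of the unfolded protein response (121, with 58.6 in replicate 1 and 59.8 in replicate 2), crh-1, the CREB homolog (61.2), and jun-1 (59.7). Of 11 autosomal forkhead genes only daf-16, the FoxO factor of insulin signalling, had a member (9.09%, 0.230 to 41.3%). Its signal was 70.4 (35.6 and 39.3), 427 bp upstream of the start. The gene was also the 1 member in 24 genes of insulin, dauer and TOR signalling (4.17%, 0.105 to 21.1%). Homeobox genes had 2 of 72 (2.78%), unc-42 (114), which specifies several neuron classes, and ceh-27 (57.3). The bHLH list had 2 of 31 (6.45%, 0.791 to 21.4%), hlh-30 (68.7), the TFEB homolog, and hlh-11 (43.5). The hlh-11 peak had no partner within 100 bp in replicate 1. Zinc finger factors had 2 of 56 (3.57%), ztf-7 (81.4) and znf-207 (41.8). Cilium genes had 2 of 62 (3.23%), daf-19 (51.5), the RFX factor of ciliated neurons, and xbx-3 (42.7).

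Some large gene families had no members or few. None of 1331 chemoreceptor genes had one (a count of 0 allows up to 0.225%), and none of 305 F-box genes (up to 0.984%), limits that lie below the 3.03% of all autosomal genes. Nuclear hormone receptors had 2 of 247 (0.810%), nhr-49 (40.5) and nhr-186 (38.8), C-type lectins 1 of 237, clec-126 (39.98), and detoxification enzymes 2 of 171, ugt-18 (55.7) and gst-27 (38.3). Neither receptor peak overlapped leading peaks of both replicates, and that of nhr-49 had no partner within 100 bp in replicate 1. In the leading peaks of 1 replicate alone, 5 chemoreceptor genes had a single-gene promoter peak in replicate 1 and 3 in replicate 2, so the count of 0 belongs to the optimal list. None of 72 hedgehog-related genes (up to 4.17%) and none of 30 intestine genes (up to 10%) had one either, but these limits lie above the 3.03% and a count of 0 in lists so short does not set them apart from it.

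Other tissue lists were near that share or too short to place. Cuticle collagens had 4 of 146 (2.74%), led by col-80 (82.7), col-55 (47.3) and col-8 (44.7), major sperm protein genes 1 of 53, ssp-34 (58.1), and body wall muscle genes 2 of 27 (7.41%, 0.910 to 24.3%), cpna-1 (47.3) and unc-112 (38.5). Germline and early embryo genes had 2 of 55 (3.64%, 0.443 to 12.5%), egg-5 and cgh-1 (83.2), a germline RNA helicase.

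**Figure D5:**
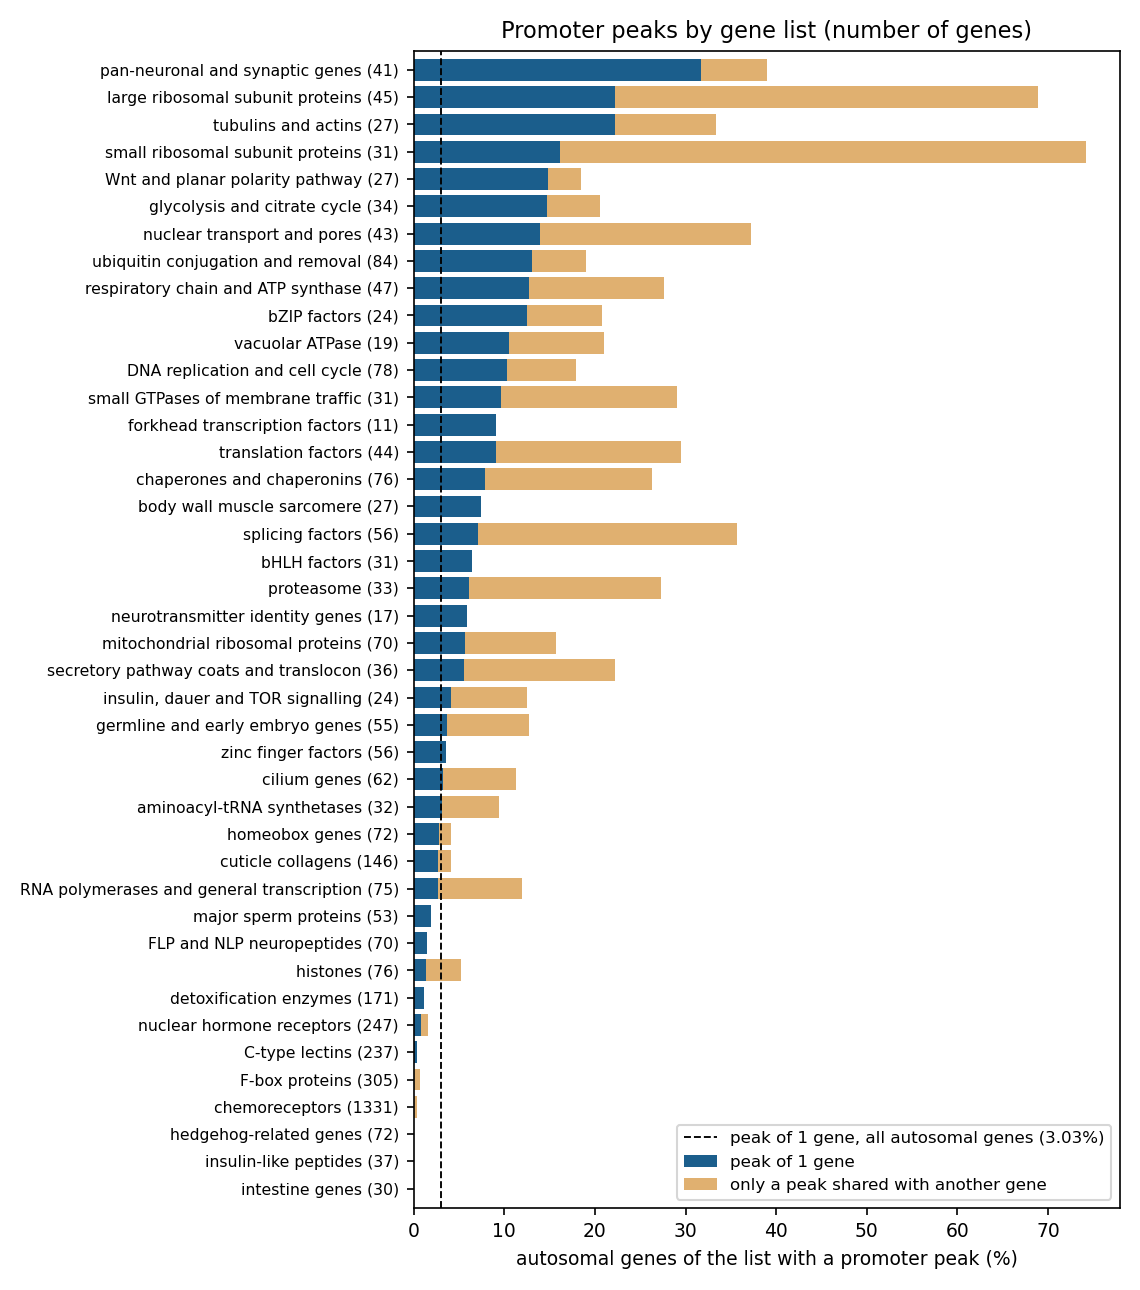
Share of the autosomal genes of each list (rows, with the number of genes) that have a single-gene promoter peak (blue) or only a peak shared with another gene (tan); the x axis is percent and the dashed line is the 3.03% of all autosomal genes with a single-gene peak. Pan-neuronal and synaptic genes lead in single-gene peaks at 31.7%, and the ribosomal lists have the longest shared parts.

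Genes for small RNAs lay near some members. A tRNA, small nucleolar RNA, small nuclear RNA or miRNA gene was within 500 bp of 29 member summits (5.45%), against 1.31% of the matching positions in all autosomal promoters. Of the 29, 14 were nearest to a small nucleolar RNA gene, 8 to a small nuclear or spliced leader RNA gene, 6 to a tRNA gene and 1 to a miRNA gene. The 8 of the small nuclear type had a median signal of 72.7. Apart from egg-5 and H41C03.3, they included F38E11.9 (111, 30 bp from the RNA gene), snr-4 (45 bp) and cox-6A. The 6 near tRNA genes were weak, with a median of 43.5 and a highest signal of 56.1, at try-3, and in 4 of them the summit lay inside the tRNA gene. Over all 29 the median signal was 48.5, against 58.7 for the other 503 members.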

How the data were processed

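ChIP-seq peak lists of 2 replicates, of the pooled replicates and the optimal set thresholded by irreproducible discovery rate were used as deposited by the authors, on ce11. The deposited signal value per peak was ranked within each list, and values of different lists were also set side by side. Its scale, like the aligner, peak caller and threshold, is not given in the sources used here. A difference in signal between lists therefore cannot be told apart from one of scale or depth. The lists hold no counts, so depth and precision per site are unknown. Positions are 1-based. Genes came from Ensembl release 115 (WBcel235) and sequences and product names from RefSeq. Python 3.11.15 with numpy 2.4.6, pandas 2.3.3, scipy 1.17.1 and matplotlib 3.10.9 was used. Intervals are Clopper-Pearson at 95%, and a count of 0 was given a limit of 3 counts. The assignment of summits and the word search were checked on simulated data. Members and lists were chosen with earlier results of these data known. Named genes were the 20 highest and 5 lowest members, the 3 highest of each list, the 5 with the largest rank difference, the 5 highest genes with 2 peaks and those of the printed sequences. Further genes were picked after their values were seen, for a word, product, window end, nearby RNA gene or unlike ranks at a strong peak. So were the other members of the pan-neuronal and Wnt lists. The lists on ce10 were not used. Alternatives covered the promoter window, transcript starts, a stricter threshold, each replicate's list, overlap rules and window lengths.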

Additional observations from a re-analysis of the deposited data

How the results depend on the processing

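No paired analysis was possible because there is 1 group. The number of members was 477 to 635 with promoters of 500 or 2000 bp or any transcript start, 512 to 534 from the leading peaks of a single replicate, and 244 in the stronger 1301 optimal peaks, which hold fewer peaks by construction. The median signal was 28.5 in the leading peaks of replicate 2 and 32.5 in those of replicate 1, on each replicate's own scale, and stayed within 58.6 to 59.1 under other windows. The share overlapping leading peaks of both replicates was 35.7% with the first 1301 leading peaks of each replicate and 93.98% with the first 5204. The median position was -197 bp with the 500 bp promoter and -546 bp with the 2000 bp one, which set it, and from -274 to -266.5 bp in single replicates. Windows of 25 or 100 bp on each side gave 4.32 and 11.1% for GAGAGAGA, 1.88 and 12.97% for RTAAAYA and 6.20 and 16.9% for CTGCGTC, shares that follow the length searched. GAGAGAGA was in 4.92% of the stronger peaks. In single replicates the shares ranged from 5.43 to 6.45% for GAGAGAGA, 4.49 to 6.18% for RTAAAYA and 8.79 to 11.4% for CTGCGTC, whose alternatives were chosen after seeing the data. The 2000 bp promoter moved the counts of 21 of 42 lists by over 1.5 times, with 22 pan-neuronal genes in place of 13, and the stricter threshold moved 26. Without replicate 1 or 2, 7 lists each moved. Of the 522 member genes, 446 were also found in replicate 2 alone and 420 in replicate 1 alone. Unknown read depth limits statements on weak peaks.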
